A study of Mus musculus with 8 samples.

Results

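Early neuroblasts with no detected transcript of Eomes or Neurog2 numbered 327 of 26036 barcodes (1.26%), where 24376 barcodes passed the limits of more than 500 genes and less than 10% of UMIs (unique molecular identifiers, 1 for each captured transcript) from mitochondrial genes. The cells were chosen by which genes had a UMI in them. Each held at least 3 of Neurod1, Igfbpl1, Sox11, Dcx and Cd24a, none of Eomes and Neurog2, and at most 1 of Calb2, Tac2, Stmn2 and Bhlhe22. Each also held at most 2 of Mcm2 to Mcm7, Pcna, Top2a, Cdk1 and Ccnb1, and at most 1 of Mog, Mag, Mobp, Cx3cr1, Cldn5, Pdgfra and Cspg4. The levels of these 28 genes describe the choice of cells, and nothing is read from a test of them.

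In the dentate gyrus (DG), neural stem cells (NSCs) give rise to intermediate progenitors, which express the transcription factors Eomes and Neurog2 and divide before they become neuroblasts. Neuroblasts leave the cell cycle, switch on Neurod1, which is needed for granule neurons to form and survive, and extend processes as they move into the granule cell layer. Sox11 is a transcription factor of immature neurons, doublecortin (Dcx) binds the microtubules of migrating neurons, Cd24a is a small surface glycoprotein of immature neurons, and Igfbpl1 is a secreted protein related to the binding proteins of insulin-like growth factors.

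All cells came from Ki67TD-NES mice of a mixed C57BL/6J and CD1 background, which carry the Nestin-GFP transgene, 1 copy of Ki67-creERT2 and a tdTomato reporter behind a stop sequence. Tamoxifen, given to every group at 100 mg/kg on 6 days, let a recombinase made in dividing cells remove that stop, and each experiment pooled 2 to 5 mice of both sexes. Green cells with and without red fluorescence were sorted from 1-month-old (1 experiment), 2-month-old (3 experiments) and 6- to 8-month-old mice (3 experiments, labelled 6 months) and sequenced as 8 droplet libraries. There was no untreated group, green fluorescence marks cells in which the transgene's Nestin sequences are or recently were active and not 1 cell type, and the libraries at 2 months used Version 2 of the chemistry and all others Version 3, and age and chemistry are therefore confounded at 2 months.

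The early neuroblasts were spread very unevenly over the experiments. The 1-month library (26464703 UMIs in all) held 12, and those of the 3 experiments at 2 months held 53 (23 in the tdTomato+ library, whose label also names cells with neither colour, with 4938419 UMIs and 30 in the tdTomato– library with 9397048), 160 (9637578 UMIs) and 77 (4861883 UMIs). At 6–8 months the libraries, of 13739260, 22621305 and 43826338 UMIs, held 11, 8 and 6. In all, 290 of the 327 cells (88.7%) were from 2 months. Only 5 of the 7 experiments had at least 10 early neuroblasts, and means over experiments are taken over those 5. Of the 25976 barcode sequences, 59 occurred in more than 1 library. These included 6 sequences of early neuroblasts, but none was shared between early neuroblasts of 2 libraries.

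Among the 5 markers, Sox11 was detected in 98.2% of the cells, Igfbpl1 in 96.9%, Cd24a in 86.9%, Neurod1 in 70.9% and Dcx in 53.5%. In 6611 cells with UMIs of Mog, Mag and Mobp, which are oligodendrocytes by these genes and should lack the markers, the shares were 4.22%, 5.08%, 1.98%, 1.78% and 1.75%, although those cells were deeper (a median of 4726 UMIs against 2403). UMIs were summed over the cells of an experiment and scaled to CPM (counts per 1000000 UMIs). Igfbpl1 stood at 3122 ± 592 CPM (SD, n = 5 experiments), Sox11 at 2898 ± 682, Cd24a at 962 ± 484, Neurod1 at 827 ± 146 and Dcx at 328 ± 71.4. Cd24a differed most between experiments relative to its mean, with 176 CPM in the 1-month experiment, 1195, 1336 and 1283 at 2 months, and 817, 485 and 395 at 6–8 months, so that every experiment at 2 months was above every other. Neurod1 was 842 CPM at 1 month, 732, 979 and 952 at 2 months and 632, 416 and 285 at 6–8 months. Of the genes that the gate limits, Stmn2, a microtubule regulator of growing axons, had a UMI in 42.2% of the cells, the helicase subunit Mcm7 in 27.8%, Calb2 in 17.1%, Mobp in 12.2% and Pcna in 11.9%, and the others in at most 7.34%.

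All 5 markers were found together in 105 cells, 83 lacked only Dcx, 44 lacked Neurod1 and Dcx, and 39 lacked only Neurod1. The limits of the gate were close to many cells. Of the early neuroblasts, 84 held just 3 markers and 226 held 1 of the 4 later genes, the limit, whereas 191 cells that met all other conditions held 2 markers and 427 held 2 later genes. A further 129 cells failed only through a single UMI of Eomes or Neurog2, and these were deeper (a median of 3369 UMIs). The absence of these transcripts is therefore a statement at this depth.

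Depth set much of the membership. In each experiment the early neuroblasts were shallower than the cells that differed from them only in a UMI of Eomes or Neurog2, with medians of 3809.5 against 8383 UMIs at 1 month, 2959 against 5145, 1950 against 2693.5 and 2369 against 3411 at 2 months, and 2903 against 7360.5, 4883 against 9084 and 8956 against 9699 at 6–8 months. Among the 3454 cells with at least 3 markers and at most 1 gene of other lineages, early neuroblasts made up 1.297% at 1 month (exact binomial 95% interval 0.672 to 2.26, counting error only). They made up 9.36%, 22.3% and 18.3% in the 3 experiments at 2 months and 4.35%, 4.82% and 1.48% at 6–8 months. The mean was 16.7% ± 6.61 at 2 months and 3.55% ± 1.81 at 6–8 months (SD, n = 3 each), 13.1 percentage points lower at 6–8 months (two-sided exact permutation test, p = 0.1, the smallest that 3 against 3 allows).

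When each cell was thinned to 2000 UMIs and the 4088 shallower cells were left out (79 from 1 month, 3597 from 2 months and 412 from 6–8 months), the gate took 615 cells, of which 187 had been in it before. The share was then 18.0% at 1 month, 25.3%, 26.7% and 25.7% at 2 months (25.9% ± 0.744), and 14.0%, 23.9% and 19.1% at 6–8 months (19.0% ± 4.99). The groups at 2 and 6–8 months still did not overlap, and the difference was 6.88 percentage points (lower at 6–8 months, exact permutation p = 0.1), in which age and chemistry cannot be told apart. Of the other cells taken after thinning, 400 had met the conditions on markers and other lineages but not the whole gate before, among them 72 Eomes or Neurog2 cells and 152 later neuroblasts, and 28 had not met these conditions.

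**Figure D1:**
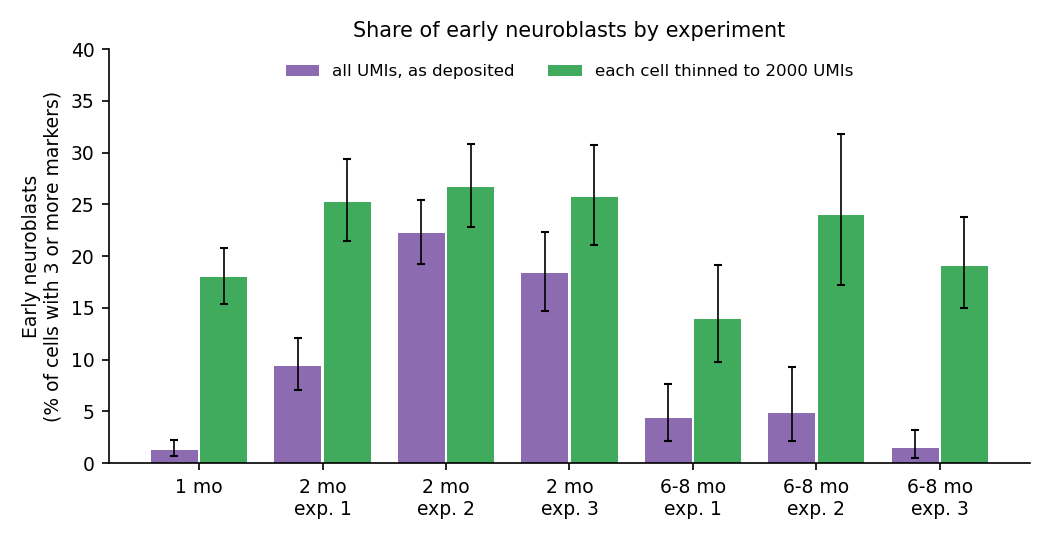
Early neuroblasts as a percent of the cells with at least 3 markers (vertical axis) in each of the 7 experiments, from all UMIs (purple) and with each cell thinned to 2000 UMIs (green), with exact binomial 95% intervals that cover counting error only. As deposited the 3 experiments at 2 months stand at 9.36% to 22.3% and all others under 5%, and after thinning all experiments lie between 14.0% and 26.7%.

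Neuronal genes that the gate did not use ranged widely in how many cells held them. Of 30 neuronal transcription factors, those with most UMIs were Sox4, a partner of Sox11 in immature neurons, with a UMI in 95.1% of the cells (2607 ± 908 CPM, n = 5; 6.8% of the oligodendrocytes), Tcf4, a dimerization partner of proneural factors, in 96.9% (2495 ± 344 CPM; 76.1% of the oligodendrocytes, at 421 CPM), and the nuclear factors Nfib (2077 ± 380) and Nfix (1744 ± 202), which act in the differentiation of neurons and glia. Prox1, which specifies granule neurons of the DG, was detected in 46.2% of the cells (38.8% of the deeper oligodendrocytes), at 254 CPM at 1 month, 297, 258 and 388 at 2 months and 527 in the first experiment at 6–8 months. Of 27 microtubule and migration genes, Tmsb4x and Tmsb10, which bind actin monomers, stood at 9884 ± 2274 and 6090 ± 2105 CPM, and Tuba1a and Stmn1, a tubulin and a protein that destabilizes microtubules, at 7903 ± 935 and 5038 ± 458. Tmsb4x, Tuba1a and Stmn1 also had a UMI in 95.6% to 99.9% of the oligodendrocytes (4644, 2117 and 4280 CPM), and Tmsb10 in 28.6% (244 CPM). Celf2, Elavl3 and Elavl4, RNA-binding proteins of neurons with a UMI in 70.3%, 60.2% and 44.3% of the cells, stood at 493 ± 173, 394 ± 133 and 292 ± 130 CPM, and Ptbp2, a neuronal splicing regulator found in 34.6%, at 194 ± 42.6. In the oligodendrocytes these shares were 4.67%, 80.5%, 1.98% and 24.5%, and Elavl3, at 455 CPM there, thus did not set the early neuroblasts apart. Gene lists of mature granule cells, Cajal-Retzius cells and ependymal cells were nearly empty: 14 of their 18 genes had no UMI in any early neuroblast, and their summed level was 30.7 CPM on average, with C1ql3 the most abundant.

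Progenitor, stem cell and cell cycle genes had UMIs in some of the cells. Gadd45g, a target of proneural factors, was detected in 52.0% (611 ± 374 CPM, n = 5), Elavl2 in 55.7% (478 ± 169), the antiproliferative gene Btg2 in 31.8% (238 ± 51.6) and the NSC factor Sox2 in 22.9% (173 ± 91.5). In the oligodendrocytes the shares were 5.01%, 1.82%, 10.4% and 29.8%. For Sox2 the share was thus higher in those deeper cells and the level lower, at 71.7 CPM. Of 25 stem cell and astrocyte genes, those with most UMIs were Cst3 (807 ± 341 CPM), Apoe (684 ± 544), the metallothionein Mt1 (405 ± 103) and the glutamate transporter Slc1a3 (326 ± 60.6), which the oligodendrocytes also held in 28.5% to 98.9% of cells. Among genes of cell cycle exit, Cdk4 (636 ± 115 CPM), the cyclin Ccnd2 (596 ± 453), Btg1 (472 ± 106) and Tob1 (298 ± 88.5) led. Among cycling genes outside the gate, Hmgb2, a chromatin protein of dividing cells, was detected in 36.7% of the cells (876 ± 983 CPM, and 444 without the 1-month experiment, where it was 2603), and Dut, Ube2c and Cenpf in 22.6%, 5.2% and 4.3%, beside 10.97%, 13.1%, 0.635% and 1.45% for the 4 genes in oligodendrocytes. Immediate early genes, which respond to stimulation and to tissue dissociation, were led by Jund (1412 ± 429 CPM), Jun (639 ± 154), Fos (514 ± 216) and Ier2 (508 ± 184).

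Surface and signalling genes were described list by list. The neural adhesion molecules Ncam1 (775 ± 140 CPM, n = 5) and Igsf8 (631 ± 179), the guidance cue Sema3c (299 ± 58.0) and the ephrin receptor Epha4 (215 ± 38.02) had most UMIs in the guidance list. Among channels and receptors these were the AMPA receptor subunit Gria2 (870 ± 592 CPM), the vesicle protein Vamp2 (166 ± 73.3), the metabotropic GABA receptor Gabbr1 (132 ± 38.9) and the NMDA receptor subunit Grin2b (109 ± 48.9). Vamp2 and Gabbr1 stood higher in the oligodendrocytes, at 190 and 295 CPM, and thus did not set the early neuroblasts apart. Ncam1 and Igsf8 had a UMI in 80.2% and 50.5% of those cells (393 and 209 CPM), and Gria2, Sema3c, Epha4 and Grin2b in at most 12.4%. Members of the insulin-like growth factor pathway were low: the receptor Igf1r stood at 85.7 ± 44.2 CPM, Igfbp5 at 60.0 ± 56.0 and Akt1 at 48.6 ± 17.7.

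Markers of interneurons and of olfactory neuroblasts separated the early neuroblasts into groups that the label does not tell apart. The homeobox genes Dlx1, Dlx2 and Dlx5 and the transcript Dlx6os1 mark neuroblasts of the GABAergic lineage, Sp8 and Sp9 are zinc finger factors of the same lineage, and Gad2 makes GABA. These genes were not used by the gate. A UMI of at least 1 of the 4 Dlx transcripts, which were singled out after the list's values had been seen, was found in 47 of the 327 cells (14.4%, exact binomial 95% interval 10.8 to 18.7). Of the 232 cells with a UMI of Neurod1, 1 held such a UMI (0.431%, 0.0109 to 2.38). Of the 95 cells with none of Neurod1, 46 did (48.4%, 38.04 to 58.9), and those 95 were no deeper (a median of 2017 UMIs against 2523.5). In the oligodendrocytes, which give the level of free RNA, the share was 0.272% (18 of 6611). The marker genes of the gate alone thus did not tell neuroblasts with Neurod1 from cells with Dlx transcripts, and for those 46 cells a reading of the label as early neuroblasts of the granule lineage goes against the data.

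The split was seen in each of the 6 experiments with more than 1 cell lacking Neurod1. Among cells without Neurod1, a Dlx UMI was found in 12 of 18, 24 of 48 and 5 of 18 at 2 months and in 1 of 4, 1 of 2 and 3 of 4 at 6–8 months, and in the single such cell at 1 month it was not found. Among cells with Neurod1, a Dlx UMI was found in 0 of 11 at 1 month, 0 of 35, 1 of 112 and 0 of 59 at 2 months, and 0 of 7, 0 of 6 and 0 of 2 at 6–8 months. Dlx2 stood at 513 CPM in all cells without Neurod1 and at 1.57 CPM in those with it. Dlx1, Dlx6os1, Sp8 and Gad2 stood at 366, 366, 185 and 101 CPM without Neurod1 and had no UMI in the 232 cells with it. Summed over all experiments, genes of the granule lineage were lower in the cells without Neurod1: Neurod2 was 54.7 against 110 CPM, Neurod6 29.4 against 158 and Prox1 252 against 337. Within experiments, only Neurod6 was lower in every one. Prox1 was higher without Neurod1 in the second experiment at 2 months (275 against 251 CPM) and the third at 6–8 months (296 against 84.6). Neurod2 was higher in the first at 6–8 months (120 against 67.5 CPM). Values with no experiment named are sums over cells of all experiments. None carries a test, since Neurod1 was among the genes that chose the cells.

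**Figure D2:**
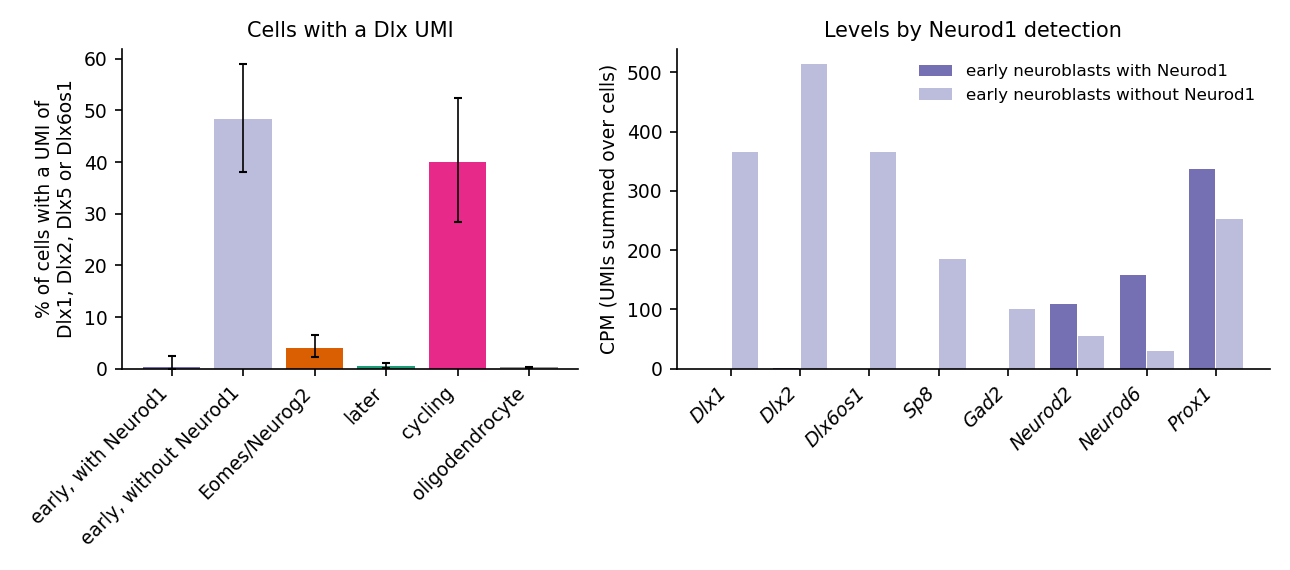
Left, percent of cells with a UMI of Dlx1, Dlx2, Dlx5 or Dlx6os1 in early neuroblasts with and without a UMI of Neurod1, in the gates that differ in 1 condition and in oligodendrocytes, with exact binomial 95% intervals (counting error only). Right, CPM of 8 genes over the UMIs of all early neuroblasts with Neurod1 (dark, 232 cells) and without (light, 95 cells). A Dlx UMI is in 48.4% of the cells without Neurod1, 40% of the cycling gate and at most 4.03% of the other cells shown.

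Neurod1 and Dlx2, which marked these 2 kinds of cell, lie on chromosome 2 of the mouse (GRCm38): Neurod1 at chr2:79452521-79456751 and Dlx2 at chr2:71543408-71546754, both on the minus strand. Their promoters are shown because nearly every cell held at most 1 of the pair. Each run is the 250 bases before the RefSeq start (build GRCm38.p6, minus strand, 5′ to 3′), at chr2:79456637-79456886 for Neurod1 and chr2:71546755-71547004 for Dlx2. The gene positions are from another annotation (GENCODE), in which Neurod1 starts further upstream. Part of the Neurod1 run thus lies within the gene as placed above. Capitals mark CANNTG, the E-box letters that basic helix-loop-helix factors such as Neurod1 recognize, which read the same on both strands.
Neurod1: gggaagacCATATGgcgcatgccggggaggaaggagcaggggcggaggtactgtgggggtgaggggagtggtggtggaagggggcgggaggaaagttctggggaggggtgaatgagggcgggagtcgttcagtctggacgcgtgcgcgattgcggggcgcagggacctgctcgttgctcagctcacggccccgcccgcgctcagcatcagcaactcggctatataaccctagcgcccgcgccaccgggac
Dlx2: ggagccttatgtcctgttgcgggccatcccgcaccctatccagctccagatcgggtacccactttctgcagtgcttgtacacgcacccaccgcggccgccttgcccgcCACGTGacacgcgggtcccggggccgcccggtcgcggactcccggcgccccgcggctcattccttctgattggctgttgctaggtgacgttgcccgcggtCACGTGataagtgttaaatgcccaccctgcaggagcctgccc
The Neurod1 promoter held 1 match and that of Dlx2 held 2, and 66.2% of all 32851 promoters of this length held at least 1, so the match does not set these genes apart.

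Markers of oligodendrocytes were also found. A UMI of Olig1, Olig2 or Sox10, transcription factors of the oligodendrocyte lineage, was present in 53 of the 327 cells (16.2%). In deeper gates the share was 11.3% (Eomes or Neurog2 cells), 11.7% (later neuroblasts) and 31.4% (cycling gate), so it is not particular to the early neuroblasts. The 53 cells were 3 of 12 at 1 month, 2 of 53, 31 of 160 and 17 of 77 at 2 months, and none of the 25 at 6–8 months. All 14 genes of the oligodendrocyte list outside the gate had UMIs, and their sum was 3288 CPM at 1 month, 246, 1800 and 1294 CPM at 2 months and 448, 115 and 132 CPM at 6–8 months. In oligodendrocytes the sum was 46378 to 63776 CPM, and in later neuroblasts it was 140 CPM at 1 month and 222, 1756 and 670 CPM at 2 months. At 2 months the order of the experiments was the same in the Eomes or Neurog2 cells, the later neuroblasts and the cycling gate. In the third experiment at 2 months these gates were at 358 to 670 CPM, under the early neuroblasts. At 1 month the Eomes or Neurog2 cells were low too (99.6 CPM), and the cycling gate was at 904 CPM. The 3 early neuroblasts with these factors at 1 month had a sum of 14881 CPM. The part of these transcripts in the other results was not tested, except where results without these cells are given. Genes of microglia and vessels were at 0 to 166 CPM in sum.

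The early neuroblasts were set beside 2 neighbouring gates, each changed in 1 condition: 397 cells with a UMI of Eomes or Neurog2, and 1094 later neuroblasts with at least 2 of Calb2, Tac2, Stmn2 and Bhlhe22. Since the gate itself made these groups, the differences (log2 of CPM + 10, early minus other, mean ± SD over 5 experiments) are a description with no test. Genes were compared if their mean was at least 100 CPM in either group, so that a gene low in one group entered only through the other, which favours large differences both ways and leaves the counts as a description of that choice. Of 1900 such genes, 20 (1.05%) were over 2-fold higher and 23 (1.21%) over 2-fold lower than in the Eomes or Neurog2 cells with the same direction in all 5 experiments. Against the later neuroblasts these were 18 (0.966%) and 8 (0.429%) of 1863. The median gene was at -0.10 and -0.03.

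The largest differences upward from the Eomes or Neurog2 cells were in the potassium channel Kcnk1 (148 against 24.5 CPM, 2.23 ± 1.16), Tmem108 (2.12 ± 0.97), the axon initial segment protein Ank3 (175.5 against 36.7 CPM, 1.96 ± 0.25), the RNA-binding protein Celf4 (1.91 ± 0.35), Ly6h, a modulator of nicotinic receptors (1.83 ± 0.71), and the growth factor receptor Fgfr1 (1.83 ± 1.05). S100a1, a calcium-binding protein, Lmo4, a LIM-only transcription cofactor, Frmd4a and Gria2 followed at 1.45 to 1.72. Celf4 was 176 CPM at 1 month, 280, 124 and 119 at 2 months and 158 in the first experiment at 6–8 months, and 41.8, 40.7, 29.6, 32.3 and 38.6 CPM in the Eomes or Neurog2 cells of the same experiments, so that the groups did not overlap. In the fixed lists, 2 of 5 channel and receptor genes (Gria2 and Grin2b), 2 of 7 guidance genes (Sema3c and Plxna2), 1 of 24 microtubule genes (Stmn4) and 1 of 10 RNA-binding genes (Celf4) passed 2-fold higher with 5 of 5 experiments.

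Downward, the largest difference from the Eomes or Neurog2 cells was in Neurod4. Neurod4, a proneural factor, was 30.8 against 134 CPM (-2.34 ± 1.35), Emx1, a factor of the cortical lineage, 126.1 against 318 (-1.56 ± 1.07), Fabp7, a fatty acid binding protein of radial glia, 124 against 281 (-1.36 ± 1.24) and Elavl4 292 against 648 (-1.21 ± 0.42). Mt2, Gamt, Gadd45gip1, Cmc1, Adrm1 and Lzts1 were at -1.32 to -1.62. Gadd45gip1 and Cmc1 had no UMI in the 11 cells at 6–8 months, and without that experiment they were at -0.76 and -0.67, under 2-fold, as was Fabp7 at -0.87. Lzts1 was at -0.97 without the 1-month experiment. Without the second experiment at 2 months, Neurod4 was 19.5 CPM (-2.54). Of 25 progenitor and Notch genes 11 had enough UMIs to compare, and none passed 2-fold in 5 of 5 experiments either way (median -0.16). Of 22 neuronal transcription factors and 11 stem cell and astrocyte genes, 2 each were lower (medians -0.06 and -0.07). Markers of other cells differed too. The 5 oligodendrocyte lineage genes compared had a median of 1.27, with none past 2-fold in 5 of 5 experiments, and the interneuron list summed to 551 CPM against 103. Of the 5 experiments, only that at 1 month went the other way for this list (39.1 against 75.5 CPM). The first at 2 months had the highest sum (1304 against 122 CPM). The part of these markers in the differences was not tested.

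The largest differences upward from the later neuroblasts were in Hes5, S100a1, Hmgb2, Cks2 and Vim. The Notch target Hes5 was 112 against 7.43 CPM (2.67 ± 1.27), Hmgb2 876 against 141 (2.03 ± 1.19, and 444 CPM and 1.52 without the 1-month experiment), the chromatin protein Hmgn2 1862 against 672 (1.46 ± 0.19), Ccnd2 596 against 153 (1.53 ± 0.97) and Vim, an intermediate filament of radial glia, 145 against 31.1 (1.65 ± 0.83). S100a1, Cks2, E130114P18Rik, Gatm and Dbi were higher by 1.33 to 2.15, and Gatm by 0.72 without the 1-month experiment. Of 11 stem cell and astrocyte genes compared, 4 passed 2-fold higher (Mt1, Fabp7, Vim and Thrsp) and none lower, with a list median of 1.02. Of 9 progenitor and Notch genes, Hes5 and Pax6 (higher in 5 of 5) did, with a median of 1.22. Only 1 of 9 genes of cell cycle exit (Ccnd2, list median 0.09) and 1 of the 2 cycling genes compared (Hmgb2) passed. Hes5 had a UMI in only 8.26% of the early neuroblasts and 3.02% of the later ones, and without the experiment at 6–8 months its mean was 74.1 CPM (2.14). Cks2, at 115 CPM, was at 75.3 CPM (1.41) without the 1-month experiment. The 5 oligodendrocyte lineage genes compared also had a median of 1.02, with none past 2-fold in 5 of 5 experiments, and the interneuron list summed to 551 CPM against 21.4 CPM, so that markers of other cells differed between these gates as well. Their part was not tested. Hmgn2 was 2094 CPM at 1 month, 1670, 2258 and 1811 at 2 months and 1476 in the first experiment at 6–8 months, and at most 873 CPM in the later neuroblasts of those experiments.

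Few genes were lower than in the later neuroblasts. In the fixed lists, 0 of 22 neuronal transcription factors, 0 of 26 microtubule genes, 0 of 8 channel and receptor genes and 0 of 7 guidance genes passed 2-fold, with medians of -0.17 to -0.27, and 1 of 11 RNA-binding genes (Rbfox1) did. Neurod2, which acts downstream of Neurod1, was 96.4 against 193 CPM (-0.98 ± 0.38), under 2-fold, with 58.7 CPM at 1 month, 172, 100 and 72.4 at 2 months and 79.1 in the first experiment at 6–8 months. Rbfox1, a neuronal splicing factor, was 42.9 against 109 (-1.22 ± 0.43), Cnih2, an auxiliary subunit of AMPA receptors, 244 against 490 (-1.06 ± 0.81) and Rac3, a small GTPase of neurons, 47.8 against 102 (-1.03 ± 0.52). Chd3os, Sh3bp5, Mapk8ip1, Dusp14, Aprt and Ppp1r14c were at -0.99 to -1.23. Without the experiment at 6–8 months Chd3os, Mapk8ip1 and Aprt were at -0.72, -0.49 and -0.80, and without that at 1 month Cnih2, Dusp14 and Ppp1r14c were at -0.70, -0.79 and -0.77. Prox1 was between both gates, higher than in the Eomes or Neurog2 cells by 0.93 ± 0.18 and lower than in the later neuroblasts by -0.58 ± 0.33, each with 5 of 5 experiments.

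**Figure D3:**
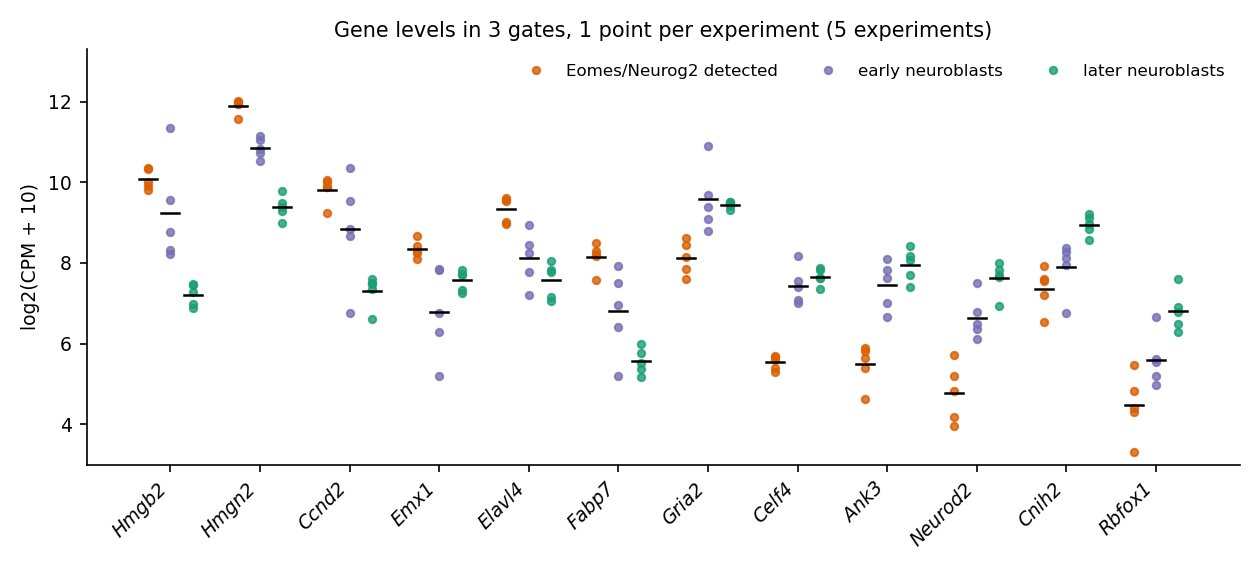
Levels of 12 genes as log2(CPM + 10) in cells with Eomes or Neurog2 (orange), early neuroblasts (violet) and later neuroblasts (green). Each point is 1 of 5 experiments and each bar the mean. Hmgb2, Hmgn2, Ccnd2 and Fabp7 step down from left to right in the mean, and Neurod2, Cnih2 and Rbfox1 step up.

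A further gate, the 70 cells with over 2 of the cycling genes but no UMI of Eomes or Neurog2, could be compared in 3 experiments. Of 2086 genes, 151 (7.24%) were over 2-fold higher and 224 (10.7%) over 2-fold lower in the early neuroblasts in all 3. Since that gate requires cycling genes, and most genes named here reached 100 CPM only in the group where they are high, lower cycling genes were fixed by the choice of cells and nothing is read from them. The list of cycling genes outside the gate had a median of -2.64 over 17 compared, and the lowest of all genes were the ribonucleotide reductase subunit Rrm2 (7.97 against 464 CPM, -4.81 ± 0.35), the replicative histone Hist1h2ap (-4.19 ± 0.05), the kinetochore gene Spc24 (-4.15) and the replication factor Pclaf (-4.13). Ccna2, Spc25, Prc1, Nusap1, Pbk and Kpna2 were at -3.43 to -3.76. Kcnk1, Pak7, Myt1l, Ank3, Ppp2r2b, Meg3, Tmem108, Sema3c and Sptbn1 were higher by 2.75 to 3.33, and Neurod2 was 110 CPM and had no UMI in the cycling cells of these experiments. Several moved by over 1.5 times when 1 experiment was left out: Meg3, at 330 CPM, was at 89.1 CPM (2.06) without the first experiment at 2 months, and without the 1-month experiment Tmem108 was at 71.9 in place of 146 CPM, Sptbn1 at 49.6 in place of 111 and Pbk at 10.4 in place of 46.1. Of the others, Myt1l and Pclaf were at 3.87 and -4.99 without the 1-month experiment and Ank3 at 3.85 without the second at 2 months, and Rrm2 and Spc24 were both at 2.86 CPM without that experiment, in place of 7.97 and 6.96. Nusap1, Spc25 and Kpna2, all under 12 CPM on average, also moved by at least 1.5 times in CPM. A Dlx UMI was found in 28 of the 70 cycling cells (40%, interval 28.5 to 52.4), 27 of them among the 49 with no Neurod1, so that this gate mixes the same kinds of cell.

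The reporter gave a measure that the gate did not use. The eGFP transcript of the Nestin-GFP transgene stood at 333 CPM at 1 month, 166, 258 and 207 at 2 months and 79.1 in the first experiment at 6–8 months. It was below the Eomes or Neurog2 cells of the same experiment in 5 of 5 experiments, with a mean log2 difference (CPM + 1) of -0.50 ± 0.32, and above the later neuroblasts in 5 of 5, by 0.99 ± 0.34. Each had p = 0.0625 in a two-sided exact sign-flip test over experiments, the smallest that 5 allow, and 0.281 after Benjamini-Hochberg adjustment over 9 comparisons. Against the cycling gate it was lower in 3 of 3 experiments (-1.12 ± 0.34, exact sign-flip p = 0.25, the smallest that 3 allow, adjusted 0.75). In the first experiment at 2 months, the values of the early neuroblasts and of the Eomes or Neurog2 cells were nearly equal, 166 and 169 CPM. In the other experiments at 6–8 months, with 8 and 6 early neuroblasts, the order was the opposite (300 against 167 and 175 against 96.4 CPM). At this depth 224 of the 327 cells had no eGFP UMI, and 45.7% of the deeper oligodendrocytes had 1, so that a UMI of eGFP does not mark the lineage.

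**Figure D4:**
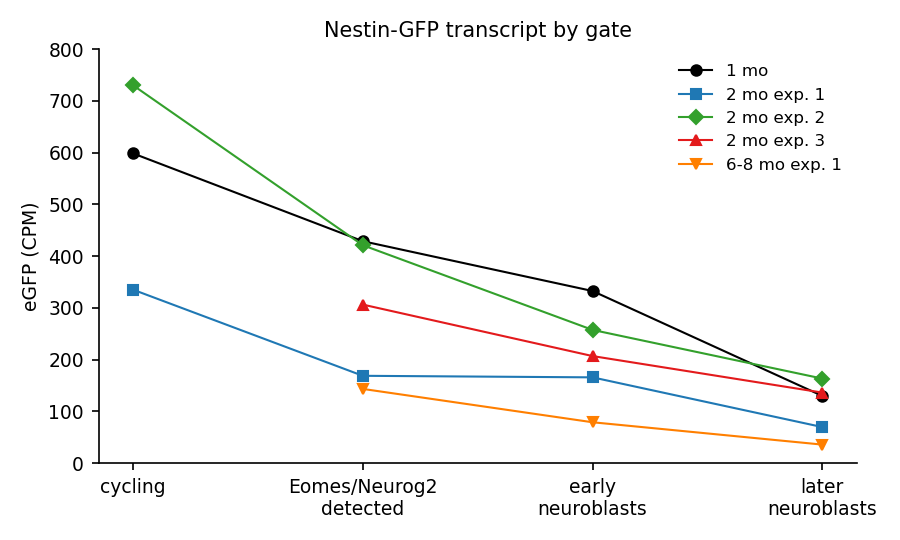
eGFP transcript in CPM (vertical axis, from 0) in the cycling gate, the Eomes or Neurog2 cells, the early neuroblasts and the later neuroblasts, 1 line for each experiment with at least 10 cells in the gate. In each of the 5 experiments the early neuroblasts are below the Eomes or Neurog2 cells and above the later neuroblasts.

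The tdTomato reporter locus is transcribed in an intact form, which keeps the stop, and in a recombined form. Neither differed in a set direction: the recombined form was 0.16 ± 0.70 and 0.07 ± 0.57 above the Eomes or Neurog2 cells and the later neuroblasts in log2, each higher in 3 of 5 experiments, and the intact form was -0.21 ± 1.03 and -0.34 ± 0.93 (exact sign-flip p = 0.5625 to 0.875, adjusted 0.938 to 0.984). Cells were called recombined with fewer than 4 intact and more than 1 recombined UMIs, and both limits were doubled for Version 3. By this call 94 of the 327 cells were recombined: 2 of 12 at 1 month, 18 of 53, 46 of 160 and 22 of 77 at 2 months, and 3 of 11, 1 of 8 and 2 of 6 at 6–8 months. The separately sorted libraries give no independent check of the call. The paper set its limits by testing its first dataset, whose tdTomato+ and tdTomato– cells were sequenced apart as they are here. In the tdTomato+ library 17 of 23 early neuroblasts were called recombined (73.9%, interval 51.6 to 89.8) and in the tdTomato– library 1 of 30 (3.33%, 0.0844 to 17.2). The label of the first also names cells with neither colour, so that its uncalled cells need not be misses of the call. Recombined cells were deeper in the last 2 experiments at 2 months (medians of 2329.5 against 1785 and 2838 against 2299 UMIs), and the share was not compared between ages.

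Recombined and unrecombined early neuroblasts were then compared in the 3 experiments at 2 months, the ones with at least 5 cells of each, to ask whether neuroblasts of recently divided cells differ in expression. In the first of these, 17 of the 18 recombined cells came from the tdTomato+ library, so that state and library were largely confounded there. With edgeR's quasi-likelihood method and the experiment as a block, 0 of 2060 genes (0%) passed an adjusted p of 0.05, 144 had an unadjusted p under 0.05, and DESeq2 called 0 (14 unadjusted). In simulated data for this comparison 79.0% of genes with a log2 change of 2 were recovered. The simulation set a dispersion of 0.1 for every gene, and its experiments differed only in total UMIs. Its spread was not estimated from these cells, so it does not give the power of the test in them. The 5 genes with the smallest p in each direction did not pass. They were Mfng, a Notch modifier (log2 difference 1.71 ± 0.39, SE), Pogz (1.79 ± 0.43), Rpp14, Tuba1a (0.33 ± 0.09) and Neurod6 on the higher side, and S100a16 (-1.27 ± 0.26), Znrf1, Ptprz1, Dbi and Ptn on the lower side, with adjusted p from 0.140 to 0.411 in edgeR. Neurod6 was 232 against 69.8, 211 against 139 and 191 against 51.7 CPM, higher in recombined cells in 3 of 3. S100a16 was 166 against 209, 158 against 314 and 191 against 753 CPM, lower in 3 of 3. Mfng and Ptn had their direction in only 2 of 3, with Mfng at 16.6 in recombined against 34.9 CPM in unrecombined cells and Ptn at 133 against 87.3 CPM in the first experiment. Dbi turned to the higher side when fewer genes of other lineages were allowed. No gene of the fixed lists was called, and the list medians ran from -0.75 over 3 oligodendrocyte lineage genes to 0.38 over 6 progenitor and Notch genes, with 0.28 over 2 cycling genes, 0.21 over 8 immediate early genes, 0.10 over 24 microtubule genes and -0.02 over 22 neuronal transcription factors, beside -0.002 for all genes. The 3 oligodendrocyte lineage genes tested had a median of -0.75, each with an unadjusted p under 0.05, and without the cells that held interneuron or oligodendrocyte lineage genes 1 gene was called.

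Comparisons across age rested on very few cells, with 12 at 1 month and 11 in the only experiment at 6–8 months that had at least 10, so the spread between experiments came from 2 months. Each of these 2 ages was thus a single experiment. A call below is a difference of that experiment, and experiment and age cannot be told apart. In simulated data, 47.1% of genes with a log2 change of 4 and 1.6% of those with 2 were recovered. The same set spread was used, so these shares do not give the power in these cells. Between 6–8 months and 1 month, 4 of 4011 genes (0.0997%) passed an adjusted p of 0.05 in edgeR's test, and DESeq2 called 0, with 89 unadjusted. They were Apoe, Hmgb2, Junb and Stmn2, of which the gate limits Stmn2, so that its call is not read. No call was left without experiment 1 or without experiment 3 of 2 months.

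Each rested on a handful of cells, and its values in the other experiments at 6–8 months, with 8 and 6 cells, are given beside it. Apoe, a lipid carrier of glia and NSCs, was 1585 CPM at 1 month and 105 at 6–8 months (log2 difference -3.83 ± 0.55, SE, edgeR adjusted p = 0.00348), beside 560, 615 and 554 at 2 months, but 78 of the 81 UMIs at 1 month came from 2 cells (59 and 19), 1 of which held an Olig1, Olig2 or Sox10 UMI. In the smaller experiments at 6–8 months Apoe was 69.3 and 1163 CPM. Hmgb2 was 2603 CPM at 1 month and 290 at 6–8 months (-3.10 ± 0.57, edgeR adjusted p = 0.0314), and 124 of 133 UMIs at 1 month came from 2 cells (74 and 50). The smaller experiments had 762 and 1031 CPM, above the 309 to 750 CPM of 2 months. Junb, an immediate early gene, had no UMI in the 51092 UMIs at 1 month and 22 of 37947 at 6–8 months, at least 9.87-fold higher against a floor of 3 counts over the 1-month cells, with 124 to 183 CPM at 2 months and 254 and 351 CPM in the smaller experiments. Stmn2 was 58.7 CPM at 1 month and 791, 346 and 43.9 at 6–8 months. With those experiments added (at least 5 cells, chosen after seeing the data), Junb alone of the 4 was called again (edgeR adjusted p = 0.0213, or 0.0410 in Version 3 libraries only), and Apoe (-1.71, edgeR adjusted p = 0.439) and Hmgb2 (-1.82, 0.0911) were not. Of the 8 immediate early genes tested 1 was called and the list median was 1.79, and of 25 neuronal transcription factors tested none was called (median 0.44), beside -0.09 for all genes. Of 10 stem cell and astrocyte genes tested 1 was called, Apoe, and 7 had an unadjusted p under 0.05, with a median of -1.90. The 4 oligodendrocyte lineage genes tested had a median of -4.46, with none called. The part of these markers of other cells in the differences was not tested.

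Between 6–8 and 2 months, 38 of 2747 genes (1.38%) passed, 17 higher and 21 lower at 6–8 months. All 38 had a value at 6–8 months outside the range of the 3 experiments at 2 months. The call itself favours this, and the share over all genes tested was not counted, so nothing is read from it. The number of calls and the balance of directions changed with the method and the scaling, as given in the section on processing. Markers of other cells moved with this comparison. Cells with a UMI of Olig1, Olig2 or Sox10 were 50 of 290 at 2 months and 0 of 11 in the experiment at 6–8 months, and the 3 oligodendrocyte lineage genes tested had a median of -1.16. Without cells holding interneuron or oligodendrocyte lineage genes (chosen after seeing the data), 27 genes passed, 25 of them among the 38. Of these 38, 27 (71.1%) had a 1-month value, also of Version 3, nearer to 6–8 months than to the mean of 2 months on the scale of log2(CPM + 10), against 45.1% of all genes tested. In CPM these were 23 (60.5%) and 43.5%. In the smaller experiments at 6–8 months, also of Version 3, both values of all 27 were outside the range of 2 months in the same direction. The choice of the 27 by Version 3 values favours this, and the share over all genes tested was not counted. Gm42418, a transcript that overlaps ribosomal RNA, was 3386 CPM at 1 month, 45.8, 45.5 and 36.2 at 2 months and 975 at 6–8 months (4.20 ± 0.39, SE, edgeR adjusted p = 6.17e-07), and Rpl23a was 274, then 2865, 2221 and 2494, then 211 CPM (-3.88 ± 0.46, edgeR adjusted p = 2.70e-05). Hnrnpa0, an RNA-binding protein, was 744, then 62.9, 66.7 and 82.8, then 738 CPM (3.09 ± 0.41). Eid2, AC160336.1, Gm26735, mt-Atp8, Irf2bp2, Zcchc11, mt-Nd4l and Ppp1r14b were higher at 6–8 months by 1.82 to 3.86, and the translation factor Eef2 (-2.47 ± 0.38), Rpl13a, mt-Nd1, Rpl4, Rpl17 and Rpl31 were lower by 1.85 to 2.47. Ribosomal protein genes made up 11 of the 38 and 80 of the 2747 tested. Age and chemistry cannot be told apart for any of these.

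For 11 of the 38 genes the 1-month value was nearer to 2 months on the log2 scale. For 5 of these both smaller experiments at 6–8 months were outside the range of 2 months in the same direction (Basp1, Junb, Gm47283, Shf and Ap3s1). The share over all genes tested was not counted here either. Basp1, a growth cone protein, was 842 CPM at 1 month, 812, 591 and 461 at 2 months and 2266 at 6–8 months (1.57 ± 0.31, edgeR adjusted p = 0.00640), where all 11 cells had a UMI, and 1224 and 987 CPM in the smaller experiments. Gadd45g was 548 CPM, then 343, 500 and 398, then 1265 (1.303 ± 0.311), with 485 and 724 CPM in the smaller experiments, and Junb, Gm47283, Shf and Ube2q1 were also higher at 6–8 months. Apoe, Ap3s1 and 3 genes with no UMI in the 11 cells were lower. Of these, Cdh2, the neural cadherin, was 183, 248 and 186 CPM at 2 months, Mt2 177, 158 and 212, and Tceal8 137, 170 and 166. The 11 cells held 37947 UMIs in all, so that no fold is given for these 3. In the smaller experiments Cdh2 was 162 and 219 CPM, Mt2 92.3 and 263 and Tceal8 254 and 65.8, in part within or above the values of 2 months, and none of the 3 was called when these were added (edgeR adjusted p = 0.371 to 0.517). Apoe, at -0.51, was not called then either (edgeR adjusted p = 0.657). In the fixed lists, 1 of 24 neuronal transcription factors (Id2, lower), 1 of 10 progenitor and Notch genes (Gadd45g), 1 of 7 stem cell and astrocyte genes (Apoe, lower, list median -0.73), 2 of 24 microtubule genes (Basp1 higher, Marcksl1 lower), 1 of 9 guidance genes (Cdh2) and 1 of 8 immediate early genes (Junb) were called.

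**Figure D5:**
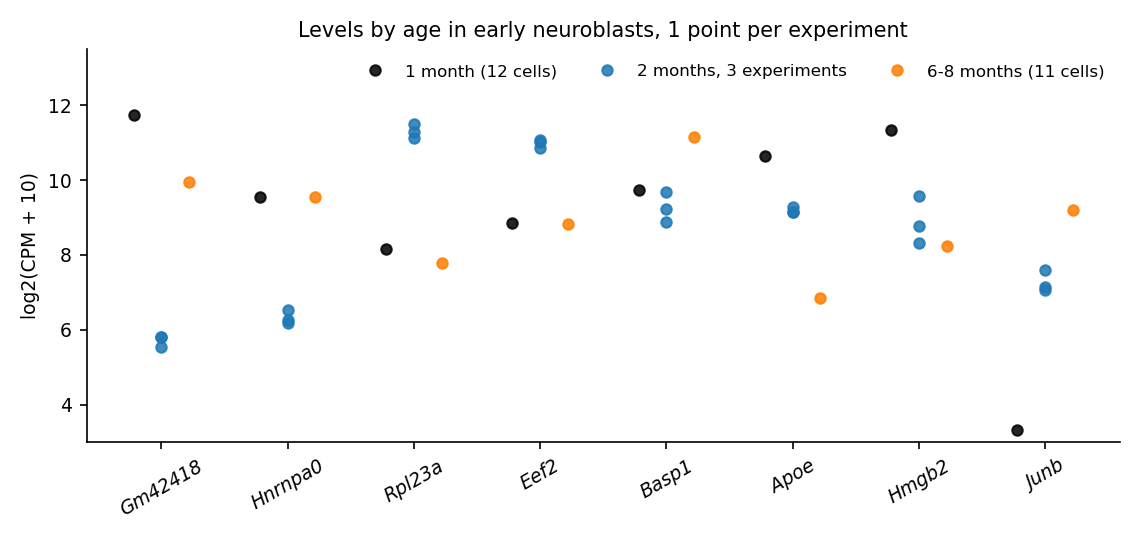
Levels of 8 genes as log2(CPM + 10) in early neuroblasts at 1 month (black, 1 experiment of 12 cells), 2 months (blue, 3 experiments) and 6–8 months (orange, 1 experiment of 11 cells). For Gm42418, Hnrnpa0, Rpl23a and Eef2 the 1-month and 6–8-month points, both of Version 3, lie on the same side of all 3 points at 2 months, and for Apoe, Hmgb2 and Junb they lie on opposite sides.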

How the data were processed

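The authors mapped droplet reads (cutadapt 1.18 and Cell Ranger 3.0.2 per the labels) to mm10 with reporter sequences added, and deposited whole-number UMI counts for 31058 genes and elements in 26036 barcodes of 8 libraries, merged without normalization. A barcode's suffix gives its library, and 0 columns were left unmapped. The cells, gene lists and comparisons were chosen with earlier results of these data known. No doublet caller was run, and the limit of 1 gene of other lineages took its place. UMIs were summed over the cells of an experiment, and the pair of separately sorted libraries counts as 1 experiment. Tests took genes detected in 20% or more of the cells of 1 group, with edgeR 4.0.16 (TMM scaling, quasi-likelihood, Benjamini-Hochberg adjustment, all ages sharing 1 spread), in R 4.3.3, with DESeq2 1.42.0 as an alternative; single values with exact tests (scipy 1.17.1). Experiments needed at least 10 cells, or 5 of each kind for recombined against unrecombined, which come from the same mice and were therefore paired (correlations of deviations 0.302, 0.282 and 0.108 over 2060 genes). Nothing states that experiments of an age are more than separate days of pooled mice. The genes named were the 4 with the highest mean CPM and all called in each list, up to 12 called genes each way by size whose groups did not overlap, the 5 smallest p each way where none was called, and the 10 largest differences each way per gate. Others were named after their values were seen. Some genes that the rule picks are not reported here. Genes with near-identical copies, such as Rpl23a, and overlapping genes, such as Gm42418, are uncertain. Tests were tried on simulated counts (200 changed genes, dispersion 0.1, 5 draws). Gene positions are GENCODE M21, promoters RefSeq.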

Additional observations from a re-analysis of the deposited data

How the results depend on the processing

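Few cells, shallow libraries and 1 experiment at each end of the age range limit these results. The gate took 105 cells when all 5 markers were required and 615 after thinning to 2000 UMIs. For 6–8 months against 1 month, the 4 calls became 0 in DESeq2, 20 with no filter on low counts and 2 with filterByExpr, and between 0 and 4 when 1 experiment was left out (0 without 2-month experiment 1 and without 2-month experiment 3). With experiments of at least 5 cells it was 5, and 4 in Version 3 libraries only (both chosen after seeing the data), each sharing 1 gene with the 4. For 6–8 against 2 months, the 38 calls became 23 in DESeq2 (5 higher and 18 lower), 21 with filterByExpr and, with experiments of at least 5 cells (chosen after seeing the data), 141, of which 31 were shared. Without cells holding interneuron or oligodendrocyte lineage genes there were 27, 8 higher and 19 lower. Scaling by total UMIs alone gave 20 higher and 14 lower, with the median gene at 0.18. For recombined against unrecombined cells, the 0 calls became 11 with no filter, 3 with filterByExpr, 3 with unrecombined cells that held an intact and no recombined UMI, 1 with at least 4 markers and 1 without cells holding interneuron or oligodendrocyte lineage genes (chosen after seeing the data), and between 0 and 1 when 1 experiment was left out. With no replicate block the count was 0. Dbi changed sign, to 0.33, when fewer genes of other lineages were allowed.

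The eGFP differences kept their sign in every alternative run. Differences of the reporter locus did not, and none passed a test. Leaving out 1 experiment moved the intact form between -0.39 and 0.23 against the Eomes or Neurog2 cells and between -0.57 and 0.0526 against later neuroblasts. It moved the recombined form between -0.0345 and 0.39, between -0.12 and 0.22, and between -0.14 and 0.18 against these and the cycling gate. With experiments at 2 months only (chosen after seeing the data), the intact form was 0.39 and 0.14 against the Eomes or Neurog2 cells and later neuroblasts, and the recombined form -0.00605 and 0.18 against later neuroblasts and cycling cells. Without the separately sorted libraries it was -0.0203 against later neuroblasts. The causes were not tested. Age tests with only Version 3 libraries of at least 10 cells, with at least 4 markers or with fewer genes of other lineages could not be fitted, nor could those without the only experiment at 1 month or the only one at 6–8 months with enough cells, since too few cells or experiments were left.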
